A study of Mus musculus with 6 samples.

Results

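Genes of DNA replication and mitosis were examined in the distal jejunum of mice that lacked Hnf4a in the intestinal epithelium. The list held 52 genes, 26 of S phase and DNA replication and 26 of mitosis, taken from textbook knowledge of the cell cycle. Each was found on the arrays by its gene symbol and read from its brightest probe set with 1 symbol, the one with the highest mean over the 6 arrays. This gave 51 measured genes among the 18193 genes on the arrays, 26 of replication and 25 of mitosis. The signal of Ccnb1 was not analysed here. The study set 3 mutant mice, with a floxed Hnf4a allele deleted by Cre recombinase under a villin promoter, against 3 control littermates, all aged 7 months. Every animal carried the same strain label, B6.129X1(FVB)-Hnf4atm1.1Gonz/J, and received ketamine and xylazine before it was killed. The labels do not say whether the controls carried Cre. Total RNA of jejunal tissue went onto 1 Affymetrix array per animal. Villin drives Cre in epithelial cells only, so muscle, stroma and immune cells of the mutants kept an intact Hnf4a gene and contributed to the RNA.

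A dividing cell loads the ring-shaped MCM helicase onto replication origins, opens the DNA with the help of Cdc45 and the GINS complex, and copies it with polymerases held by the Pcna clamp. It then enters mitosis under Cdk1 and its cyclins, attaches chromosomes to the spindle under the control of Aurora and Polo kinases and the Bub1 checkpoint, and leaves mitosis when the anaphase-promoting complex marks cyclins for destruction. In the small intestine, division of epithelial cells takes place in the crypts, while the villus surface is covered by cells that no longer divide. These genes are therefore commonly read as a measure of crypt activity, although dividing lymphocytes of the mucosa express them too.

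Hnf4a itself read 8.83, 8.83 and 9.82 on the log2 scale in mutants 1, 2 and 3, against 11.82, 11.76 and 11.57 in controls 1, 2 and 3 (adjusted p = 0.00756, limma). Array medians over all probe sets lay between 3.93 and 3.98. The 11 measured enterocyte markers averaged 12.5 to 12.7 in mutants and 12.8 to 12.9 in controls. Their median difference was -0.14 (mutant minus control). The largest were those of Fabp1 (-1.23), Lct (-0.61) and Anpep (-0.53), and Cdh1 alone lay higher in mutants (0.33). Control 3 stood apart by pancreatic acinar transcripts, with a mean of 7.99 over 6 genes against 4.35 to 4.57 on the other arrays. Mutant 2 stood apart by fat transcripts, with a mean of 7.72 over 4 genes against 6.30 to 6.66 elsewhere. The mean differences of the replication and mitotic genes, and the differences of the genes given on every array, are also given without single arrays.

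No gene of replication or mitosis passed the test. At an adjusted p under 0.05 in limma's moderated test, 0 of 51 were called, where 0.528% of all genes were called. By direction, 0 of the 51 were called higher and 0 lower in mutants, where 0.198% of all genes were called higher and 0.33% lower. At an unadjusted p under 0.05, 1 of the 51 (Tk1) was called, where 12.1% of all genes were called in either direction and 6.85% lower. Small differences nonetheless ran mostly one way, with the mutant mean below the control mean in 41 of 51 genes, where 53.3% of all genes lay below. The median difference of the 51 genes was -0.11 on the log2 scale (mutant minus control), and that of all genes was -0.01. With 0 genes called, a decrease in mutants was not established. In bulk tissue, fewer dividing cells, less RNA per dividing cell and a larger share of RNA from other cells could not be told apart.

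The mean over the 26 replication genes was 6.76, 6.99 and 6.74 (log2 signal) in mutants 1, 2 and 3, against 7.03, 6.76 and 7.10 in controls 1, 2 and 3. The groups overlapped, since control 2 read like mutants 1 and 3, and mutant 2 lay near control 1. The difference was -0.13, smaller than the SD of 0.18 between controls. Over the 25 mitotic genes the mean was 6.95, 7.05 and 6.87 in mutants, against 7.13, 6.91 and 7.21 in controls. Here too control 2 lay below mutants 1 and 2. The difference was again -0.13, with an SD of 0.09 between mutants and 0.16 between controls. Replication and mitotic genes thus stood at much the same distance from their controls, and in both the order of the arrays was the same in each group, with mutant 2 above mutant 1 above mutant 3, and control 3 above control 1 above control 2.

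**Figure D1:**
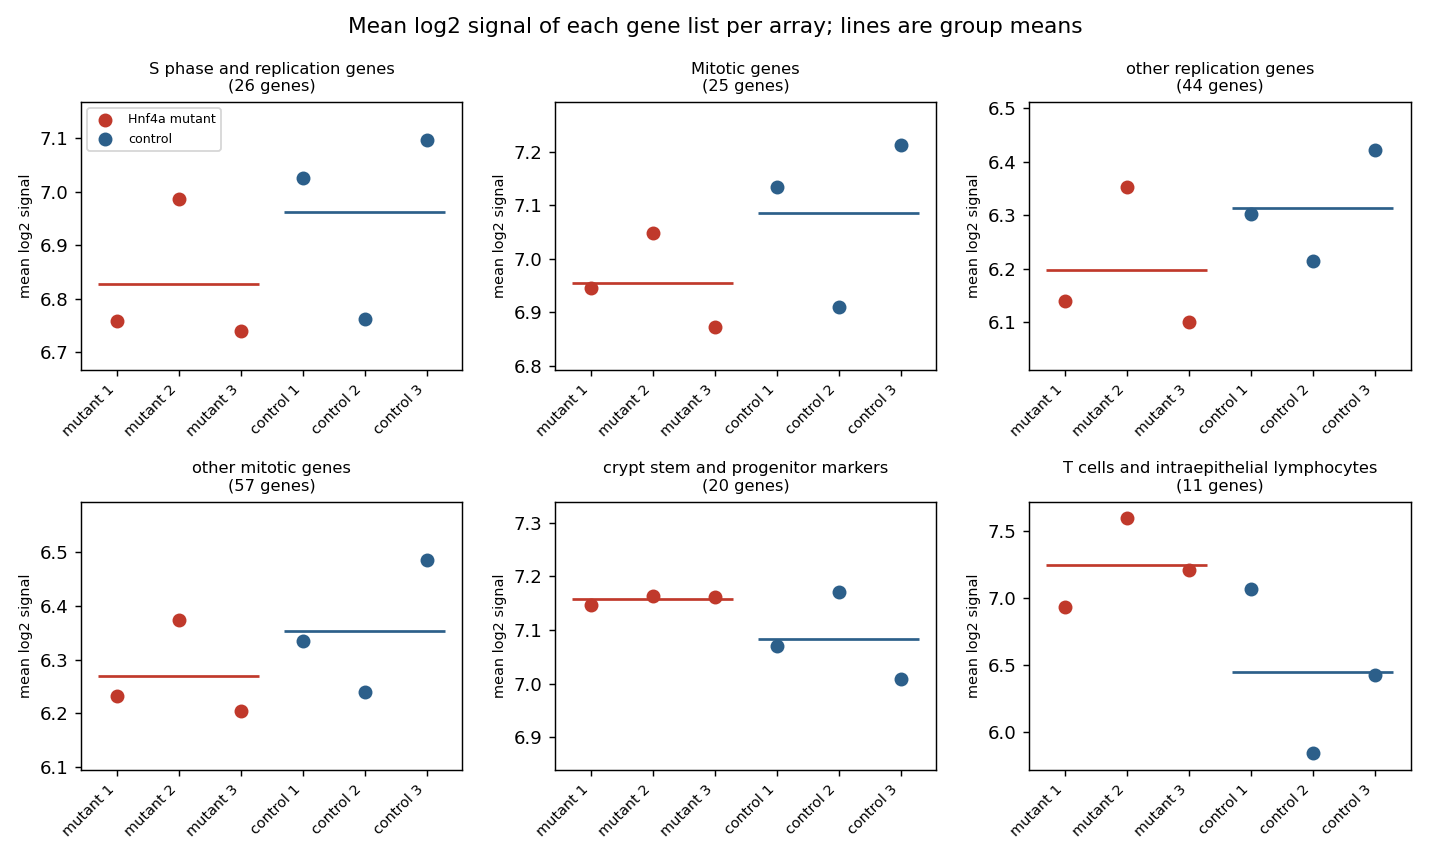
Mean log2 signal (vertical axis) of 6 gene lists on each array (horizontal axis), mutants in red and controls in blue, with lines at the group means. The first 5 panels span the same height of 0.5, and the T cell panel spans 2. Control 2 sits with the mutants in both upper left panels, while crypt markers do not follow the same order.

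The intervals bound how large a difference these arrays leave room for. The 95% interval of the difference lay wholly within a 2-fold change in either direction for 50 of the 51 genes, and within 1.5-fold for 38. The exception at 2-fold was Tk1, whose interval ran from -1.19 to -0.19. Of all 18193 genes, 17288 had intervals within 2-fold and 14245 within 1.5-fold. The 50 and the 38 include Tyms, whose signal lay below every array median. The standard error of the difference ranged from 0.09 to 0.22 over the 51 genes, with a median of 0.15, against a median of 0.13 over all genes. In 47 of the 51 genes the 3 controls differed among themselves by more than the group means did, as they did in 73.5% of all genes.

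**Figure D2:**
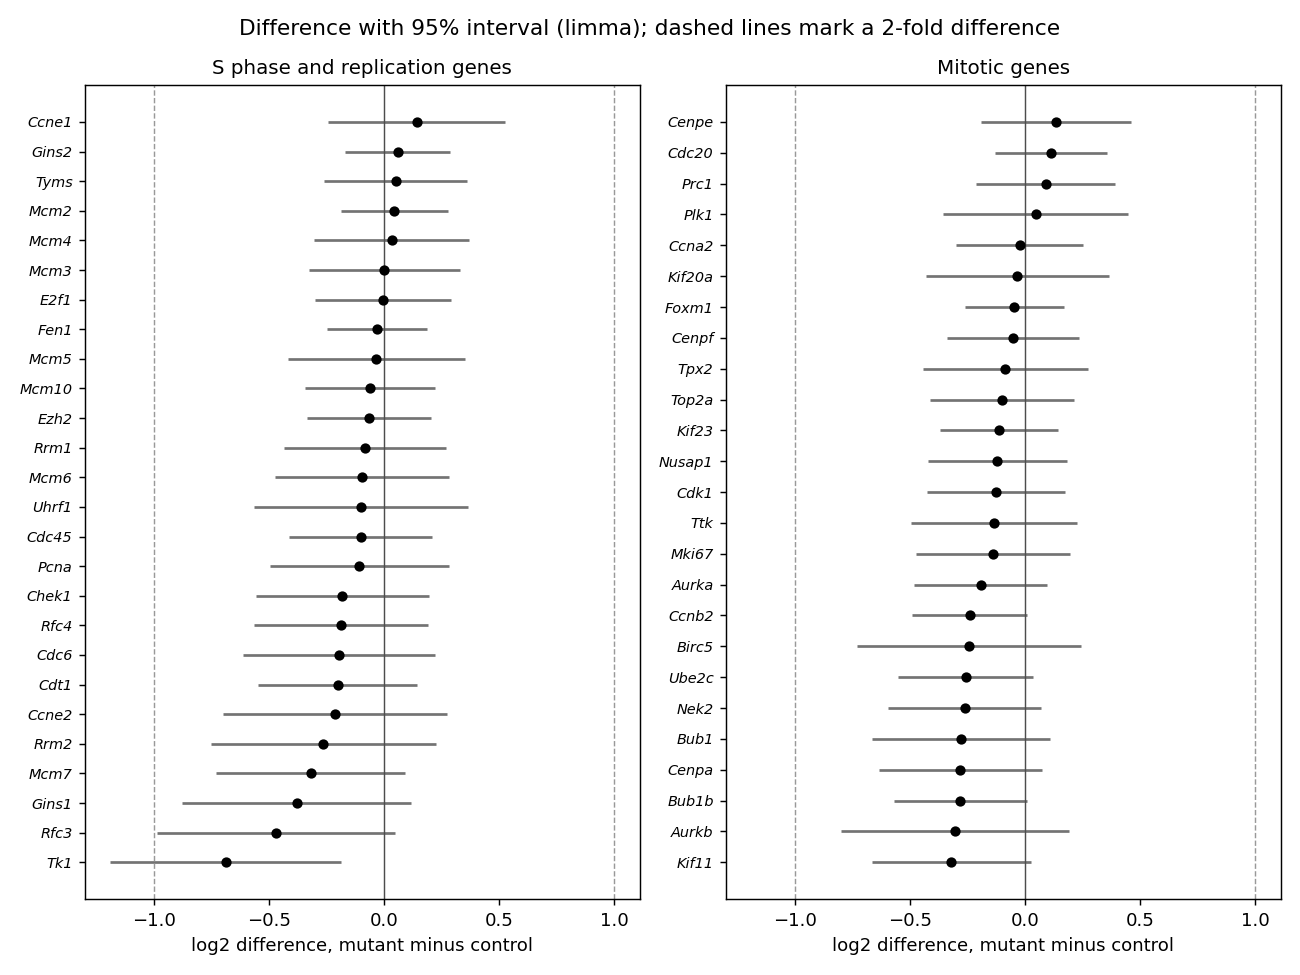
Difference in log2 signal (mutant minus control, horizontal axis) of each replication gene (left) and mitotic gene (right), with dots for the estimate and bars for limma's 95% interval. Dashed lines mark a 2-fold difference, which only the bar of Tk1 crosses. Of the 51 dots, 41 lie left of 0.

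Replication and mitotic genes are set apart by their promoters, a feature that played no part in choosing them. Mitotic genes are known for the cell cycle genes homology region, or CHR, an element bound by the DREAM and B-Myb complexes, next to CCAAT boxes bound by NF-Y, whereas many S phase genes carry sites of E2F factors. Promoter windows of RefSeq (GRCm38.p6), from 250 bases before to 50 after the gene start, were found for 43 of the 52 genes, including Ccnb1, whose promoter was searched although its signal was not analysed, and gave 47 windows. They were searched on both strands for the CHR (TTTGAA or TTTAAA), the CCAAT box (CCAAT) and the E2F site (TTTCGCGC, TTTGGCGC, TTCCCGCC or TTTCCCGC, the last 2 of which overlap each other). These are matches of letters and do not show that a factor was bound.

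The CHR letters were present in 19 of 22 mitotic windows (86.4%), in 8 of 25 replication windows (32.0%) and in 21.7% of the 18109 windows of all genes on the arrays. A CCAAT box was present in 20 of 22 mitotic windows (90.9%), in 15 of 25 replication windows (60.0%) and in 37.4% of all. Both elements together were found in 18 of 22 mitotic windows (81.8%), 5 of 25 replication windows and 8.44% of all. The E2F site showed the opposite split, with 1 of 22 mitotic windows (4.55%), 13 of 25 replication windows and 5.09% of all. Base composition was much alike, with a median GC content of 59.7% in mitotic, 57.3% in replication and 58.3% in all windows. Where 2 CCAAT boxes lay 31 to 33 bases apart, a spacing chosen after the distances were seen, the window was mitotic in 6 cases (27.3%) and of replication in 1 of 25, against 1.32% of all windows.

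**Figure D3:**
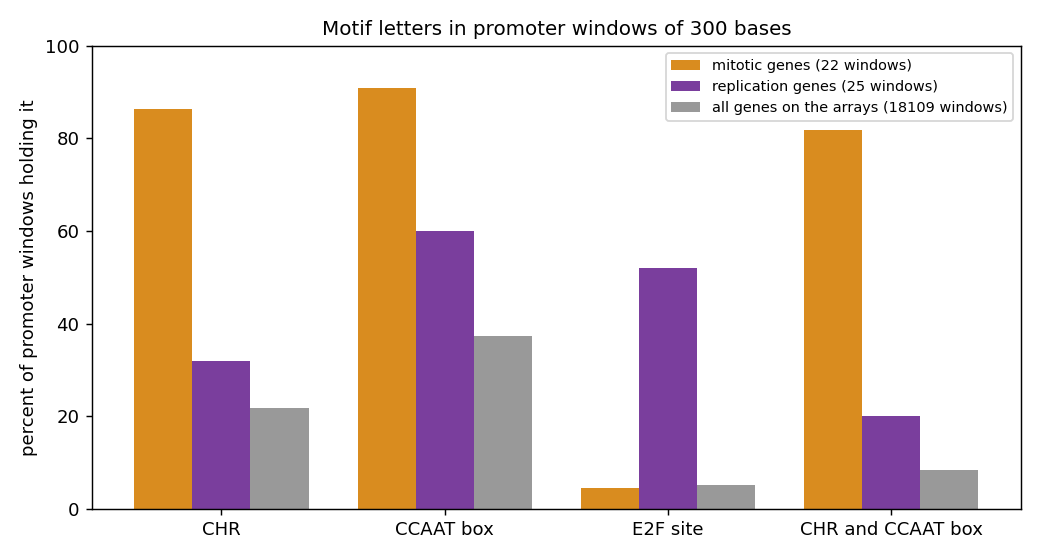
Percent of promoter windows (vertical axis) that hold the CHR letters, a CCAAT box, an E2F site, or both CHR and CCAAT box, for mitotic genes, replication genes and all genes on the arrays. The CHR bar is high for mitotic genes (86.4%) and the E2F bar for replication genes (13 of 25 windows).

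The promoters of 4 mitotic and 4 replication genes show the arrangement. Each run holds 180 bases before the gene start and 30 after it, 5′ to 3′ on the gene's strand, with capitals for the letters of a CHR, a CCAAT box or an E2F site on either strand (ATTGG is a CCAAT box and TTCAAA a CHR of the other strand). Ccnb2 encodes cyclin B2 and lies at chr9:70421525-70421734 on the minus strand, Cdk1, the mitotic kinase, at chr10:69352883-69353092 on the minus strand, Kif11, a spindle motor, at chr19:37376202-37376411 on the plus strand, and Ube2c, the ubiquitin-conjugating enzyme of the anaphase-promoting complex, at chr2:164769749-164769958 on the plus strand.
Ccnb2: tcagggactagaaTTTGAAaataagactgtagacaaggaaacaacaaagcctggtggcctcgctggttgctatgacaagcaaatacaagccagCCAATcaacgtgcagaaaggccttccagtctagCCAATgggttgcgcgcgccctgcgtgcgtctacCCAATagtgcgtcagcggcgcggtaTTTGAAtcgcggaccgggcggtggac
Cdk1: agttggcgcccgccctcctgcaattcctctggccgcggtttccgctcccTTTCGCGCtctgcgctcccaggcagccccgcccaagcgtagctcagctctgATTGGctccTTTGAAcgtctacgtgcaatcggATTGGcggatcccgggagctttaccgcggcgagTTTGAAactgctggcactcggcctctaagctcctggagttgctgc
Kif11: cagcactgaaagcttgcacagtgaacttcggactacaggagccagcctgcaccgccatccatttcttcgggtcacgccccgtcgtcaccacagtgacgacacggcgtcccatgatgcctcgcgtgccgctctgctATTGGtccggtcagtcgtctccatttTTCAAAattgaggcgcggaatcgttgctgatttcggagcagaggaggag
Ube2c: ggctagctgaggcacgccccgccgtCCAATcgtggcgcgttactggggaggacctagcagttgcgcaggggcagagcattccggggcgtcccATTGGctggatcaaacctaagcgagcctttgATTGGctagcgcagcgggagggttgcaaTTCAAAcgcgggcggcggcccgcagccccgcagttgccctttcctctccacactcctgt

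In Ccnb2 the 3 CCAAT boxes began 87, 54 and 21 bases before the start, each 33 bases from the next, and a CHR began at base 5 after it. In Cdk1 a pair of CCAAT boxes lay 32 bases apart, 80 and 48 bases before the start, with a CHR 15 bases before it. Cdk1 was also the mitotic gene whose window held an E2F site. In Ube2c the CHR began 29 bases before the start and the nearest CCAAT boxes 57 and 88 bases before it, and in Kif11 they began 19 and 45 bases before it. For replication, Mcm6 and Mcm5 encode subunits of the helicase and lie at chr1:128359676-128359885 on the minus strand and chr8:75109329-75109538 on the plus strand. Rrm1, the large subunit of ribonucleotide reductase, lies at chr7:102441515-102441724 on the plus strand and Rfc3, a subunit of the clamp loader, at chr5:151651179-151651388 on the minus strand.
Mcm6: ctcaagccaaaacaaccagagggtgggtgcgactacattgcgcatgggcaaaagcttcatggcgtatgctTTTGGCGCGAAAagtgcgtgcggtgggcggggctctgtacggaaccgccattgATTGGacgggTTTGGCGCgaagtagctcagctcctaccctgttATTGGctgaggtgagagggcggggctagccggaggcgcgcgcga
Mcm5: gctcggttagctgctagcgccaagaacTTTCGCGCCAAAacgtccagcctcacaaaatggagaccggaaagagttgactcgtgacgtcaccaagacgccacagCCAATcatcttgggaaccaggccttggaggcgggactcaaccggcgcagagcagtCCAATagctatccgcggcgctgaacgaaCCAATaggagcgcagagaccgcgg
Rrm1: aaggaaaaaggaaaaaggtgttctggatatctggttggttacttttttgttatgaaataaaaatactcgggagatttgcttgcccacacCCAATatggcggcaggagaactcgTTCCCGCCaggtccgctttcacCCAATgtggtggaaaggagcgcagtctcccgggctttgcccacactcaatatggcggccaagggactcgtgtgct
Rfc3: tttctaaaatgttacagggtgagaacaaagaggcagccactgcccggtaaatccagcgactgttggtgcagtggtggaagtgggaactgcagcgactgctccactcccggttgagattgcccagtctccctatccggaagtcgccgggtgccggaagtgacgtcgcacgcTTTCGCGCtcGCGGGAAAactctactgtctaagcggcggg

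Mcm6 held E2F letters that began 110, 106 and 47 bases before the start, and Mcm5 held a pair of overlapping matches 153 and 149 bases before it. In Rrm1 the match began 67 bases before the start, between CCAAT boxes at 91 and 45. In Rfc3 a pair of matches lay across the start itself, from 10 bases before it and from base 1. Whether genes with and without these letters differed in their response was not tested.

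Among the roles of replication, the 4 genes that supply nucleotides had the lowest mean difference, -0.25, of which Tk1 made the greater part. Tk1, thymidine kinase, which salvages thymidine for DNA synthesis, read 6.69, 7.04 and 6.16 (log2 signal) in mutants 1, 2 and 3, against 7.25, 7.15 and 7.55 in controls 1, 2 and 3. All mutants lay below all controls, which held in the same direction for 10.2% of all genes. The difference was -0.69 ± 0.22 SE, or 1.61-fold lower in mutants, with an adjusted p of 0.26. Tk1 had the smallest p of the 51 genes, yet its mutants spread widely (SD 0.44, n = 3) with mutant 3 far below mutant 2. The ribonucleotide reductase subunit genes Rrm2 and Rrm1, which make deoxynucleotides, differed by -0.26 ± 0.21 SE and -0.08 ± 0.15 SE. Less bright probe sets of Rrm1 gave -0.40 ± 0.26 SE and, below every array median, 0.11 ± 0.11 SE. Tyms, thymidylate synthase, read 2.69 to 3.07 on all arrays, below every array median, so no level of Tyms can be read from it. It was the 1 gene of the 51 whose signal was not above the highest array median of 3.98 on all arrays.

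The 6 subunits of the MCM helicase ring lay on both sides of their controls. Their mean was 8.21, 8.37 and 8.01 in mutants, against 8.36, 8.05 and 8.35 in controls, and 3 subunits lay above and 3 below the control mean. Mcm7 lay lowest of them. It read 9.18, 9.27 and 8.64 in mutants 1, 2 and 3, against 9.39, 9.17 and 9.48 in controls 1, 2 and 3, so that mutant 2 exceeded control 2. The difference was -0.32 ± 0.18 SE (adjusted p = 0.544), and without mutant 3 it was -0.12. The other 5 subunits, Mcm2 to Mcm6, differed by between -0.10 and 0.05. Mcm6 and Mcm7 belong to the same ring, and both had their lowest value in mutant 3.

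Factors that license and fire origins gave 5 of 6 genes below the control mean. Gins1, a subunit of the GINS complex that activates the helicase, read 5.02, 5.48 and 4.85 in mutants 1, 2 and 3, against 5.69, 5.08 and 5.71 in controls 1, 2 and 3. Control 2 again fell among the mutants, and the difference of -0.38 ± 0.22 SE had an adjusted p of 0.554. Its partner Gins2 read 6.36, 6.41 and 6.41 in mutants against 6.40, 6.22 and 6.40 in controls, a difference of 0.06 ± 0.10 SE (adjusted p = 0.88). On their brightest probe sets the pair of GINS subunits thus lay on opposite sides of their controls, and neither passed the test. The other probe set of Gins2 gave -0.05 ± 0.25 SE, and that of Gins1, below every array median, gave 0.07. Cdt1, which loads the helicase, read 8.59, 8.79 and 8.23 in mutants against 8.64, 8.75 and 8.82 in controls (difference -0.20 ± 0.15 SE, adjusted p = 0.666). Mutant 3 lay below every other array there, and without it the difference was -0.05. Cdc6, also a loader, Cdc45, of the active helicase, and Mcm10 differed by -0.20, -0.10 and -0.06.

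Pcna, the sliding clamp, read 10.40, 10.99 and 10.92 in mutants 1, 2 and 3, against 10.83, 10.75 and 11.04 in controls 1, 2 and 3. Only mutant 1 lay below all controls, and the difference of -0.11 ± 0.17 SE had an adjusted p of 0.871. Without mutant 1 it was 0.08. The clamp loader gene Rfc3 read 5.54, 6.35 and 5.58 in mutants, against 6.17, 6.15 and 6.55 in controls, so that mutants 1 and 3 lay below all controls and mutant 2 did not. Its difference was -0.47 ± 0.22 SE (adjusted p = 0.467), or -0.73 without mutant 2, while that of Rfc4, of the same loader, was -0.19 and that of the flap nuclease gene Fen1 was -0.03. Among genes of the step from G1 to S, cyclin E1 gave the highest difference among the replication genes. Ccne1 read 5.82, 6.03 and 6.24 in mutants, against 6.05, 5.57 and 6.04 in controls (difference 0.14 ± 0.17 SE, adjusted p = 0.816). Control 2 was the lowest array there, and without it the difference was -0.02. The other, less bright probe set of Ccne1 gave -0.24 ± 0.15 SE. Ccne2, cyclin E2, differed by -0.21 and E2f1, a transcription factor of S phase, by -0.01. The chromatin genes Uhrf1, needed to maintain DNA methylation, and Ezh2, a histone methyltransferase, and the checkpoint kinase gene Chek1 differed by -0.10, -0.06 and -0.18. The other, less bright probe set of Uhrf1 gave -0.54 ± 0.26 SE.

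**Figure D4:**
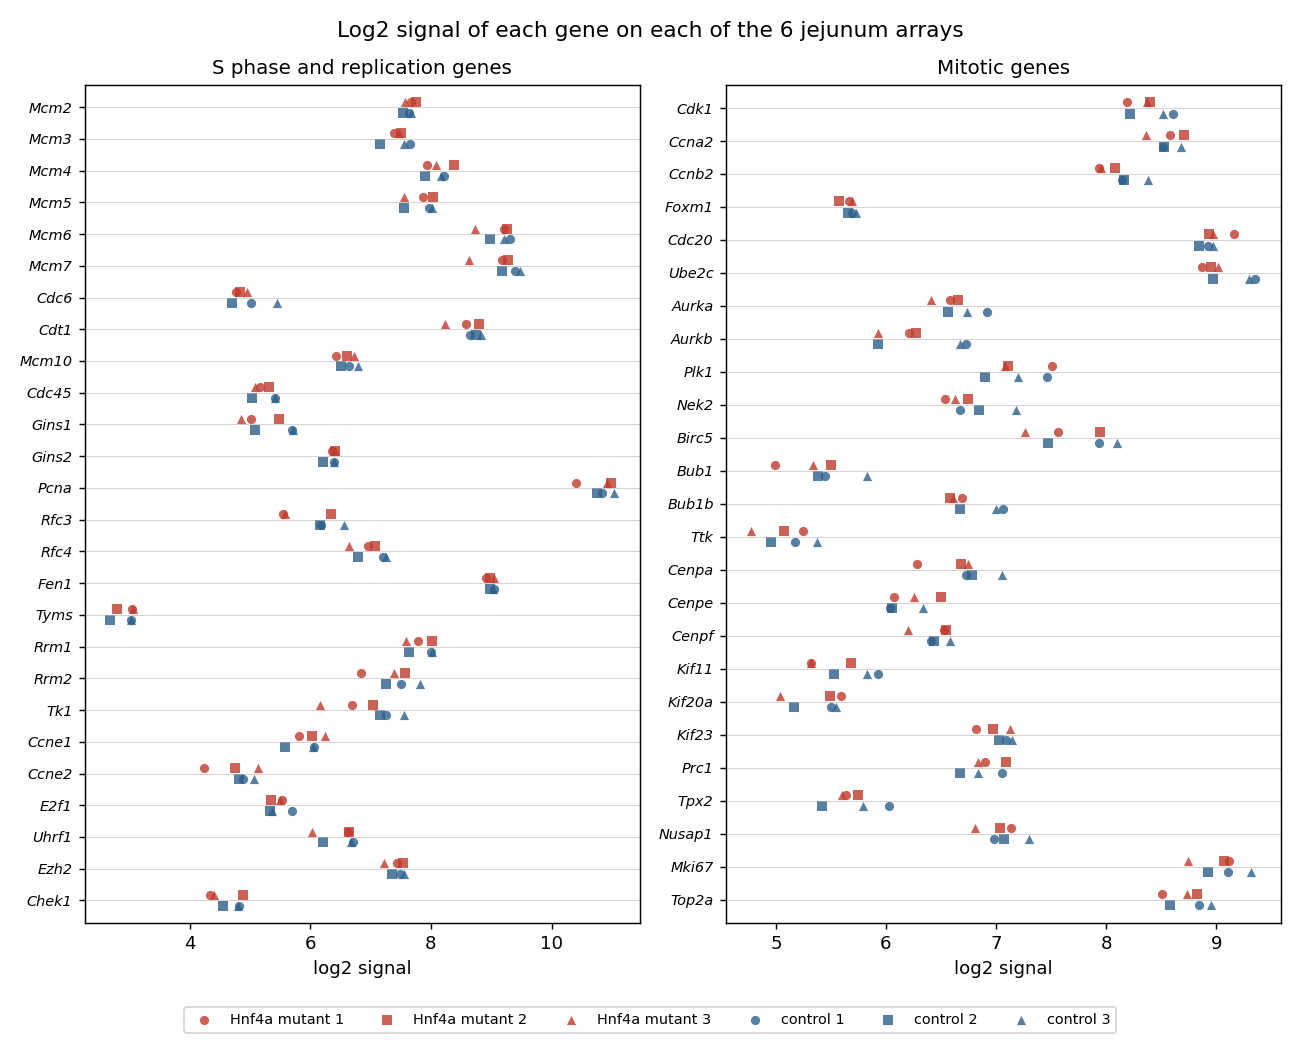
Log2 signal (horizontal axis) of each of the 51 genes on each array, replication genes on the left and mitotic genes on the right, with mutants in red above controls in blue and 1 marker shape per animal number. Red and blue points overlap for every gene but Tk1 and Ccnb2. Tyms lies far left, below the array medians.

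The mitotic entry genes differed little. Cdk1 read 8.19, 8.40 and 8.37 in mutants 1, 2 and 3, against 8.61, 8.22 and 8.52 in controls 1, 2 and 3 (difference -0.12 ± 0.13 SE, adjusted p = 0.782). Its values interleaved, with control 2 beside the lowest mutant. Ccnb2 read 7.94, 8.08 and 7.95 in mutants, against 8.14, 8.17 and 8.38 in controls, and was the 1 mitotic gene with all mutants below all controls. The difference was -0.24 ± 0.11 SE, or 1.18-fold lower, with an adjusted p of 0.437. In all, 2 of the 51 genes had groups that did not overlap, where 17.1% of all genes did. Ccna2, cyclin A2, which acts in S phase and early mitosis, differed by -0.02, and Foxm1, a transcription factor of mitotic genes, by -0.05.

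Cdc20 and Ube2c both act with the anaphase-promoting complex, yet on their brightest probe sets they lay on opposite sides of their controls. Cdc20, an activator of the complex, read 9.17, 8.94 and 8.97 in mutants against 8.93, 8.84 and 8.97 in controls (difference 0.11 ± 0.11 SE, adjusted p = 0.754). The further probe sets of Cdc20 gave -0.01 and -0.12, so the contrast rests on the brightest one. Ube2c read 8.87, 8.95 and 9.02 in mutants against 9.35, 8.97 and 9.30 in controls (difference -0.26 ± 0.13 SE, adjusted p = 0.478). For Ube2c controls 1 and 3 stood above all mutants, and control 2 lay within them. Whether the 2 genes differ from each other in their response was not tested.

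Of 5 genes of mitotic kinases and their partner survivin, 4 lay below the control mean, as did all 3 of the spindle checkpoint, with 0 called. Bub1b, which encodes the checkpoint kinase BubR1, had the smallest p of the mitotic genes. It read 6.69, 6.58 and 6.61 in mutants 1, 2 and 3, against 7.06, 6.67 and 7.00 in controls 1, 2 and 3 (difference -0.28 ± 0.13 SE, adjusted p = 0.428). Mutant 1 exceeded control 2 by a small margin, so the groups overlapped. Aurkb, the kinase of the chromosomal passenger complex, read 6.21, 6.27 and 5.93 in mutants, against 6.73, 5.93 and 6.67 in controls. Its controls covered 0.80 on the log2 scale, more than the difference of -0.30 ± 0.21 SE (adjusted p = 0.649). Birc5, the survivin subunit of the same complex, differed by -0.25, Aurka, which acts at spindle poles, by -0.19, Nek2, a centrosome kinase, by -0.26, the checkpoint kinase genes Bub1 and Ttk by -0.28 and -0.13, and Plk1, the Polo kinase, by 0.05.

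Centromere genes went both ways. Cenpa, the histone H3 variant that marks centromeres, read 6.29, 6.69 and 6.75 in mutants 1, 2 and 3, against 6.72, 6.79 and 7.05 in controls 1, 2 and 3 (difference -0.28 ± 0.15 SE, adjusted p = 0.534), and without mutant 1 the difference was -0.14. Cenpe, a kinetochore motor, read 6.07, 6.50 and 6.26 in mutants against 6.04, 6.06 and 6.33 in controls, the highest difference of the mitotic genes at 0.13 ± 0.14 SE (adjusted p = 0.786). Both sets of values overlapped between groups, and Cenpf, a kinetochore protein gene, differed by -0.05. The spindle motor gene Kif11 had the lowest difference of the mitotic genes. It read 5.32, 5.69 and 5.32 in mutants, against 5.92, 5.53 and 5.83 in controls (difference -0.32 ± 0.15 SE, adjusted p = 0.454), with mutant 2 above control 2. The motor genes Kif20a and Kif23 of the dividing cell's midzone differed by -0.03 and -0.11, and the microtubule binders Prc1, Tpx2 and Nusap1 by 0.09, -0.09 and -0.12.

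The genes most often used as markers of dividing cells differed between the groups by less than 1 standard error, as did Pcna and Cdk1 above. Mki67, which encodes the Ki-67 antigen, read 9.12, 9.07 and 8.75 in mutants 1, 2 and 3, against 9.11, 8.93 and 9.32 in controls 1, 2 and 3. The difference was -0.14 ± 0.14 SE (adjusted p = 0.78) with a 95% interval from -0.47 to 0.19, and it was -0.04 without control 3 and -0.02 without mutant 3. Top2a, the topoisomerase that untangles chromosomes, read 8.50, 8.83 and 8.74 in mutants against 8.84, 8.58 and 8.95 in controls, a difference of -0.10 ± 0.14 SE (adjusted p = 0.841), which was -0.02 without control 3 and -0.01 without mutant 1. For both genes, control 2 lay inside the range of the mutants.

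The pattern that ran through most of the list was one of single animals. Among the controls, control 2 had the lowest value in 43 of 51 genes and the highest in 0, whereas over all genes it was lowest in 33.3% and highest in 34.1%. Control 2 was lowest in 25 of 26 replication genes and in 18 of 25 mitotic genes. Control 3 had the lowest value in 0 of 51 genes and the highest in 31. Among mutants, mutant 2 was highest in 33 of 51 and lowest in 5, where all genes gave 34.9% and 27.4%, and the lowest values were shared by mutants 1 and 3 with 22 and 24 genes. Genes of the list share the RNA of each animal, so these counts describe 6 animals and not 51 separate observations.

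**Figure D5:**
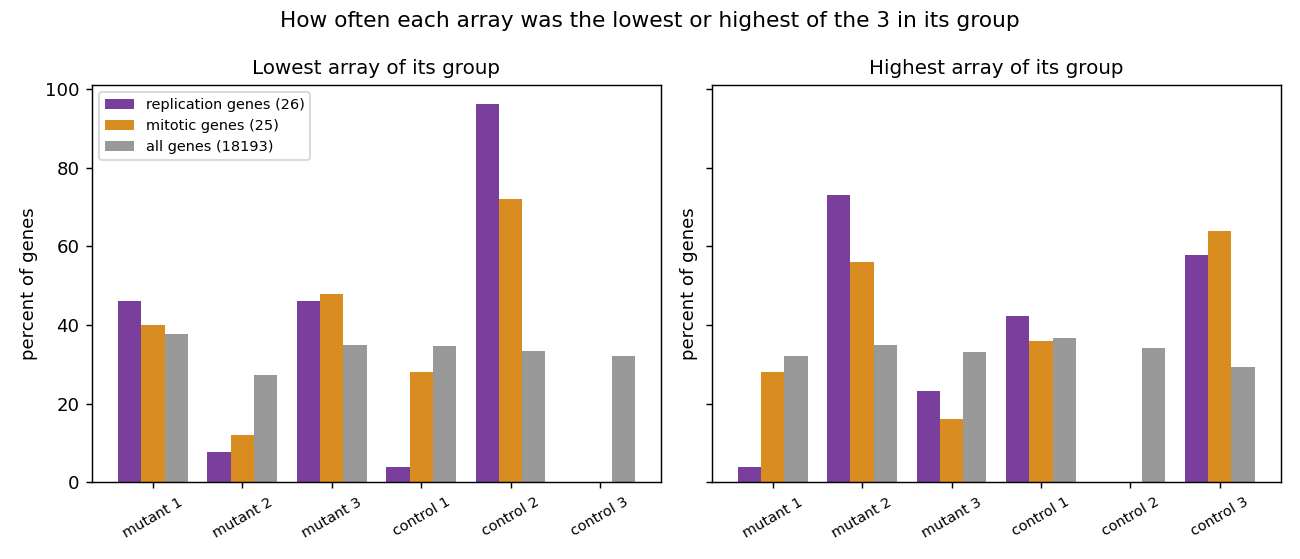
Percent of genes (vertical axis) for which each array was the lowest (left) or highest (right) of the 3 in its group, for replication genes, mitotic genes and all genes. Control 2 was lowest in 25 of 26 replication genes, and mutant 2 was highest in 33 of the 51 genes.

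How many genes lay lower depended on the control that a mutant was set against. Against control 3, mutants 1, 2 and 3 lay lower in 44, 41 and 43 of 51 genes, with median differences of -0.24, -0.12 and -0.33. Against control 1 they lay lower in 40, 31 and 40. Against control 2 they lay lower in 19, 10 and 25, with median differences of 0.06, 0.18 and 0.00. Without control 2, 48 of 51 genes lay below the control mean and the mean differences were -0.23 for replication and -0.22 for mitosis, still with 0 genes called and a smallest adjusted p of 0.306. Without control 3, the array with pancreatic transcripts, the mean differences were both -0.07. Without mutant 2, the array with fat transcripts, they were -0.21 and -0.18, and without both of these arrays -0.14 and -0.11.

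The differences of single genes moved with the arrays as well. With each array left out in turn, Tk1 ranged from -0.89 to -0.45, Rfc3 from -0.73 to -0.33, Gins1 from -0.59 to -0.25, Mcm7 from -0.44 to -0.12 and Cdt1 from -0.33 to -0.05. Of these replication genes, Tk1 and then Rfc3 stayed farthest from 0 whichever array was left out, judged by the value nearest to 0. Of the mitotic genes, Aurkb ranged from -0.56 to -0.16, Kif11 from -0.44 to -0.24, Bub1b from -0.40 to -0.21, Ube2c from -0.38 to -0.18, Cenpa from -0.37 to -0.14 and Ccnb2 from -0.28 to -0.16. All of these kept their sign, and none passed the test with any array left out. Nearer to 0, Mki67 ranged from -0.23 to -0.02, Top2a from -0.21 to -0.01, Cdk1 from -0.24 to -0.04, Cdc20 from 0.04 to 0.16 and Cenpe from 0.02 to 0.24. Of the 19 genes given on every array, Pcna, Gins2 and Ccne1 were the 3 whose sign depended on an array. Genes outside these 19 changed sign too, since 41 of 51 genes lay below the control mean with all arrays and 34 without mutant 3.

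Other measures of the arrays were set beside this order. RNA integrity was read as the signal of a 3′ probe set minus that of a 5′ one for the same control transcript, which is larger in degraded RNA. For actin it was 0.73, 0.42 and 0.46 (log2) in mutants 1, 2 and 3, and 0.39, 0.66 and 0.44 in controls 1, 2 and 3. For Gapdh it was 0.71, 0.29 and 0.58 in mutants, and 0.45, 0.48 and 0.38 in controls. In both transcripts mutant 2, the highest mutant in the list, had the lowest value of the mutants, and control 2, the lowest control in the list, had the highest value of the controls. The other arrays did not keep the order of the list. Mutant 1 had the highest value of the mutants in both transcripts, although mutant 3 was the lowest mutant in both list means. Among controls the lowest value was that of control 1 for actin and of control 3 for Gapdh. Y-linked transcripts were present in mutant 3 and control 1, and the mean differences with these genes as a covariate were again -0.13 and -0.13. The part of RNA integrity in the order of the animals was not tested.

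Genes of the same processes outside the list were measured too. Of 48 other replication genes, 44 were measured and 0 passed the test. In limma's test 5 had an unadjusted p under 0.05, where 12.1% of all genes did. Below the control mean lay 34 (77.3%, against 53.3% of all genes), and the median difference of the 44 was -0.13. Brca2, a recombination gene, had the smallest p among them. It read 4.83, 4.87 and 4.71 in mutants, against 5.22, 5.19 and 5.16 in controls (difference -0.39 ± 0.10 SE, adjusted p = 0.156). The mutants lay below the controls, and control 2 did not stand apart there. The primase gene Prim1 and the clamp loader gene Rfc5 differed by -0.47 ± 0.15 SE and -0.39 ± 0.14 SE, also with no overlap between groups. These genes were named for their small p. The groups did not overlap in 5 of the 44 genes, against 17.1% of all genes. Of 60 other mitotic genes, 57 were measured, 0 passed and 42 lay below (73.7%), with a median of -0.10. The groups did not overlap in 7 of these 57, against 17.1% of all genes. Pbk, a mitotic kinase gene, and Cenpn, of the centromere, differed by -0.38 ± 0.14 SE and -0.29 ± 0.11 SE. Cks1b, which encodes a small subunit of cyclin-dependent kinases, lay the other way at 0.36 ± 0.13 SE.

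Of 25 regulators of the cycle measured, 0 passed, 18 lay below and 7 above the control mean, with a median difference of -0.09. Ccnd2, cyclin D2, which carries growth signals into G1, read 11.25, 11.12 and 10.90 in mutants against 10.75, 10.47 and 10.66 in controls (difference 0.47 ± 0.13 SE, adjusted p = 0.191). Rb1, the retinoblastoma gene, and E2f8, a repressor of the E2F family, differed by -0.35 ± 0.11 SE and -0.49 ± 0.17 SE. In all 3 of these genes, named for their small p, the groups did not overlap. That held for 3 of the 25 regulators and for 17.1% of all genes. Among 13 inhibitors of the cycle, 0 passed, 6 lay above and 7 below. Cdkn1a, which encodes the kinase inhibitor p21, read 10.81, 11.05 and 11.33 in mutants against 10.75, 10.18 and 10.46 in controls (difference 0.60 ± 0.18 SE, adjusted p = 0.238). Gadd45b, a stress-induced gene, differed by 0.57 ± 0.18 SE and Cdkn1c, the p57 inhibitor gene, by -0.40 ± 0.13 SE.

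Crypt stem and progenitor markers did not follow the dividing-cell genes. Of 21, 20 were measured, 0 passed, 12 lay above and 8 below the control mean. Their mean was 7.15, 7.16 and 7.16 in mutants, against 7.07, 7.17 and 7.01 in controls, so that control 2, the lowest control for the list, was the highest control here. Prom1, which marks stem and progenitor cells of the crypt, read 9.85, 9.89 and 9.83 in mutants against 9.07, 9.39 and 9.28 in controls (difference 0.61 ± 0.11 SE, adjusted p = 0.074). Lgr5, the marker of crypt base stem cells, differed by 0.30 ± 0.14 SE (adjusted p = 0.439), and Msi1, an RNA-binding protein gene, by -0.26 ± 0.11 SE. Ascl2 and Olfm4 of the same list, added after their values were seen, lay the other way from Lgr5, at -0.54 and -0.19. The list thus gave no single direction for crypt base stem cells.

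Markers of immune cells, some of which divide in the mucosa, were measured on the same arrays. The mean of 11 measured T cell and intraepithelial lymphocyte markers, of 12 listed, ranged from 6.93 to 7.59 in mutants and from 5.84 to 7.06 in controls. All 11 lay above the control mean and 0 passed. In this list too mutant 2 was the highest mutant and control 2 the lowest control, while the group difference of 0.80 ran opposite to that of the dividing-cell genes. Germinal centre B cell markers, 6 of 7 measured, averaged 4.86 ± 0.19 in mutants and 4.60 ± 0.07 in controls (SD, n = 3 each), with 0 past the test and the lowest value in control 2. Rgs13 differed most, by 0.98. Fas and Mybl1 differed by 0.35 and 0.34, and Gcsam, S1pr2 and Bcl6 by 0.03, -0.01 and -0.09. Mybl1 and Gcsam read below every array median. B and plasma cell markers, 8 of 9 measured, ranged from 6.53 to 6.85 in mutants and from 5.71 to 6.84 in controls, and were lowest in control 3. Macrophage markers, with 6 measured, ranged from 7.15 to 7.42 in mutants and from 6.98 to 7.09 in controls. Of other tissue, smooth muscle markers ranged from 9.96 to 10.18 in mutants and from 9.81 to 10.25 in controls, again with mutant 2 and control 3 highest and mutant 3 and control 2 lowest in their groups. Fibroblast markers ranged from 8.67 to 9.15 in mutants and from 8.63 to 8.95 in controls. None of the genes of these lists passed, and the part of these cells in the levels of the dividing-cell genes was not tested.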

How the data were processed

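Per probe set and array, the authors deposited 1 log2 signal. The scale was read from the range of the values, 1.80 to 14.5, and the sources used here do not give how they were summarised or normalised. They were used as deposited. Of 45101 probe sets, 64 Affymetrix controls were left out and 34945 carried 1 gene symbol in the platform annotation. The brightest probe set of each gene gave 18193 genes. A linear model with a term for group alone was fitted in limma 3.58.1 under R 4.3.3, with eBayes moderation. Its p-values are two-sided and were adjusted by the Benjamini-Hochberg method across the whole set of genes. Each array is a separate mouse, and the number of arrays limits the precision. The genes and lists were chosen with earlier results of these data known, so no list was tested as a set and no list mean carries a p-value. Genes given with values on every array were Mki67, Top2a, Pcna, Cdk1, and, among replication and among mitotic genes, the 5 with the smallest p and the 2 with the highest and the 2 with the lowest difference. Up to 3 genes with the smallest p were named from other lists. Alternatives covered normalisation, a floor, a filter, the choice of probe set, the variance model, array weights, a replicate block, a Y-linked covariate and the omission of arrays.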

Additional observations from a re-analysis of the deposited data

How the results depend on the processing

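The count of 0 replication and mitosis genes called held under all 17 alternatives, with a smallest adjusted p of 0.152 (Rfc3, without mutant 2). Of all genes tested, between 0.022% and 1.08% were called under these settings. At such shares a count of 0 among 51 genes does not set them apart from other genes. The number below the control mean, counted after the data were seen, stayed between 34 and 48 of 51 when 1 array was left out. Mean differences ranged from -0.23 to -0.07 for replication and from -0.22 to -0.07 for mitosis when 1 array was left out, and none changed sign under the other settings. The count over all genes, 96, became 13 with a floor at the 20th percentile, 150 with array weights, 196 with the Y-linked covariate, 62 with the replicate block, 4 without control 3 and mutant 2 together, and 22 to 96 when 1 array was left out (41 without mutant 2, 24 without control 2 and 22 without control 3). The cause of these changes was not tested. Where arrays were left out their number was also smaller, although without mutant 1 the count stayed at 96. Of 322 values of named genes under alternatives, 314 kept their sign and none passed. When all probe sets of a gene were averaged, the differences of Ccne1, Cdc20 and Top2a became -0.0496, -0.0059 and 0.0113. With the probe set of largest variance those of Gins2 and Cdc20 became -0.0457 and -0.0104. With 1 array left out, Pcna ranged from -0.2177 to 0.0776, Gins2 from -0.0013 to 0.0895 and Ccne1 from -0.0167 to 0.2467. Deviations of same-numbered arrays from their group means correlated at 0.073, 0.068 and -0.018, and mutant 2 correlated best with control 3 (0.125). With 3 arrays per group, these values cannot show whether same-numbered animals were paired. With the replicate block, 0 of the 51 genes were called. The number of animals limits the precision, with a median SE of 0.15 over the 51 genes.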

Other observations

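Further probe sets were on the arrays for 39 of the 51 genes. Of these 69 probe sets, 39, belonging to 28 genes, lay above the highest array median on all arrays. Their median difference was -0.12 on the log2 scale, and 29 lay below and 10 above the control mean. The sign matched that of the brightest probe set for 31 of the 39. None passed over all probe sets in limma's test, where 2 had an unadjusted p under 0.05. These 2, chosen after their values were seen, were a further probe set of Rrm2 and one of Bub1b, with differences of -0.58 ± 0.15 SE and -0.36 ± 0.14 SE.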
